A study of Mus musculus with 8 samples.

Results

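The genes described here are the Wnt signalling genes of the mouse bladder: the Wnt ligands, the R-spondins, the Frizzled receptors with their co-receptors Lrp5 and Lrp6, the secreted antagonists, the feedback targets and the nuclear effectors. They were chosen by symbol, as every gene named Wnt, Fzd, Sfrp, Dkk or Rspo followed by a number, plus Frzb, Wif1, Lrp5, Lrp6, Axin2, Lef1, Tcf7, Nkd1, Nkd2, Notum and Ctnnb1. The rule found 52 of the 38926 symbols counted in each library. Of these, 40 passed a filter on low counts and were tested.

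RNA came from whole bladders of mice in 2 groups. The NeMO group (4 libraries) had a partial obstruction of the bladder outlet, made by surgery that spares the nerves, and the Sham group (4 libraries) had a sham operation. Strain, sex, age and time after surgery are not known from the sources used here. Nor do these state that the libraries came from separate animals, so p-values here measure the spread between libraries, which may be technical. Each library also carries a batch mark: batch 1 holds NeMO replicates 1 and 3 and Sham replicates 1 to 3, and batch 2 holds NeMO replicates 2 and 4 and Sham replicate 4.

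Library totals were 29451800 to 36375313 reads in NeMO and 27212499 to 33459048 in Sham. A gene at 1 CPM (CPM, a gene's read count after scaling to one standard library size) had 26.3 to 36.1 reads, depending on the library. Bladder identity was checked with marker lists. The 8 smooth muscle markers summed to 28210 to 52054 CPM in NeMO and 33061 to 44986 in Sham, and the 9 urothelial markers to 5336 to 7828 in NeMO and 6506 to 8500 in Sham. Markers of male accessory glands summed to at most 0.0291 CPM in NeMO and 0.139 in Sham. The 4 skeletal muscle markers, however, summed to 690 to 1222 CPM in NeMO and 740 to 999 in Sham. The 7 fibroblast markers summed to 20022 CPM in NeMO replicate 3, against 8162 to 12525 in the other NeMO libraries and 8442 to 11466 in Sham, and most of that sum came from the collagens Col3a1 (10536 CPM) and Col1a1 (5092 CPM).

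Wnt proteins are secreted, lipid-modified ligands that bind Frizzled receptors. With the co-receptors Lrp5 or Lrp6 they stabilise beta-catenin, the product of Ctnnb1, which then acts with TCF and LEF factors on target genes such as Axin2. Other Wnt ligands, Wnt5a among them, signal mostly without beta-catenin. R-spondins amplify the signal by protecting the receptors from removal. Sfrp, Frzb and Wif1 proteins can bind Wnt ligands outside the cell, while Dkk proteins act on the Lrp co-receptors. In the bladder, Wnt signals are known for their part in urothelial repair and in the exchange between epithelium and stroma.

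The 4 log2 fold changes of greatest size among the 40 genes were those of secreted antagonists: Frzb, Sfrp4 and Sfrp1 were higher and Sfrp5 lower in obstructed bladders. No gene of the 40 passed the test. The test was edgeR's quasi-likelihood test with batch and group as terms and an adjusted p under 0.05 over all 16370 genes (Benjamini-Hochberg). Across all genes 0.0733% passed it. At an unadjusted p under 0.05, 13 of the 40 genes stood apart (32.5%), against 18.5% of all genes tested. Of the 13, 7 were higher and 6 lower in NeMO, and 9.38% and 9.14% of all genes were past that limit in these directions. Once trends with transcript length and GC content were removed, 14 of the 40 were past it, against 13.2% of all genes. For 5 of the 40 genes (12.5%, against 8.19% of all genes) the groups had no overlap, 4 with every NeMO library above every Sham library and 1 below. Over all genes these shares were 4.39% and 3.81%. Lrp6 alone passed when low counts were not filtered (edgeR adjusted p = 0.0345), where 0.693% of all genes did. Without NeMO replicate 1, 6 of the Wnt genes passed edgeR's test, and 3.92% of all genes did. DESeq2's Wald test called 6 of the 40, against 5.82% of all genes, namely Sfrp4, Lrp6, Frzb, Dkk3 and, lower in NeMO, Sfrp5 and Fzd3. The median log2 fold change (NeMO minus Sham) was 0.07 over the 40 genes and -0.01 over all genes tested.

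**Figure D1:**
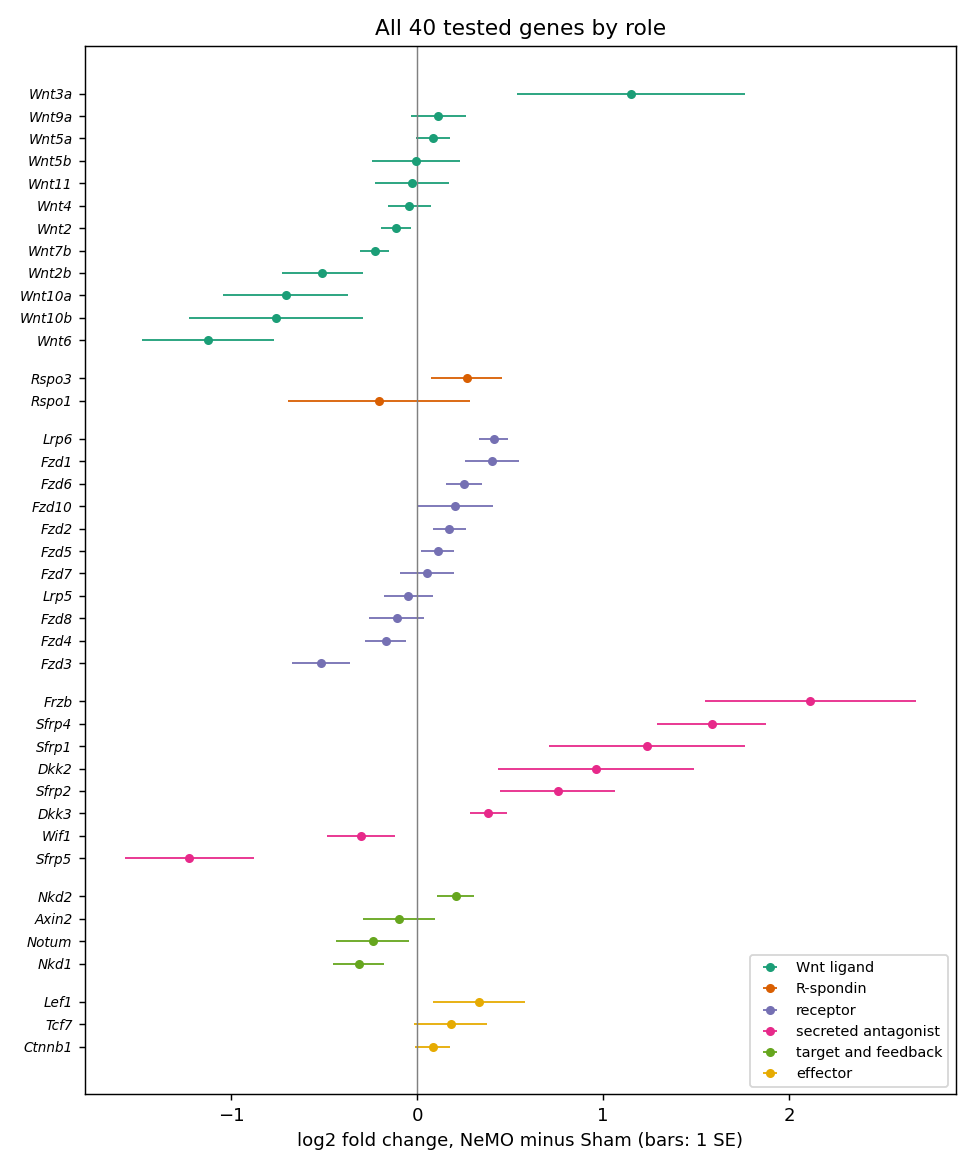
Log2 fold change (NeMO minus Sham, x axis) of the 40 tested Wnt genes, grouped and coloured by role, with bars of 1 SE from edgeR. The secreted antagonists spread from -1.22 for Sfrp5 to 2.11 for Frzb, whereas the 11 receptors lie between -0.52 and 0.41.

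The sequences just upstream of Frzb, Sfrp2 and Dkk2 are shown, as those of the antagonist genes highest in NeMO replicate 3 that the promoter table used here holds. Dkk3, Sfrp1 and Sfrp4, also highest in that library, are not shown. Each is the 250 bases before the transcription start, 5′ to 3′ on the gene's strand, from RefSeq on GRCm38.p6. They lie at chr2:80447397-80447646 (minus strand), chr3:83766071-83766320 and chr3:132085042-132085291 (both plus strand). The Frzb window is set by RefSeq's start and lies mostly inside the longer GENCODE model of the gene. Capitals mark a TATAAA motif.
Frzb: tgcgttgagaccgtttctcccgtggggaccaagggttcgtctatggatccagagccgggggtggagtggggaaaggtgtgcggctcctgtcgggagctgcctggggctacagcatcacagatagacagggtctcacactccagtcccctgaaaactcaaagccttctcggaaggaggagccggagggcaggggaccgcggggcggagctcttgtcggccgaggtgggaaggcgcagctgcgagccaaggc
Sfrp2: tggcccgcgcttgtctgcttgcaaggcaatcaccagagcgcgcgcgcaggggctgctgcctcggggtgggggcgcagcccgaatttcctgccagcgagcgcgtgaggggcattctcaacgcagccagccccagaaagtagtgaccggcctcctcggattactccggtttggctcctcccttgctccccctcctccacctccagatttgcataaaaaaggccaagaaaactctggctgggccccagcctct
Dkk2: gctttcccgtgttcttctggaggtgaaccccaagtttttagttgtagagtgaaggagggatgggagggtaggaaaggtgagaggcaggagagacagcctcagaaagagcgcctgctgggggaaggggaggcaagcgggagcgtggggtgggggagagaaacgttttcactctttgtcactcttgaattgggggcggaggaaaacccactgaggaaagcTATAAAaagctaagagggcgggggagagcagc
Both strands were searched for the letters TATAAA. They were also searched for the core that TCF and LEF factors bind, CTTTG followed by 2 letters that are each A or T. The Dkk2 window held 1 TATAAA, beginning 32 bases before the start, and the windows of Frzb and Sfrp2 held neither motif. Their base composition differed too, with 64.4% G or C in the Frzb window, 63.6% in that of Sfrp2 and 55.6% in that of Dkk2. RefSeq entries were matched for 35 of the 52 genes (43 windows). The TCF and LEF letters were in 11.6% of those windows, those of Dkk1, Fzd7, Lef1, Wnt11 and Wnt5b, and in 14.8% of all 32851 windows. TATAAA was in 18.6% of the Wnt gene windows and 12.4% of all windows. A match is only a run of letters, and a window without one says nothing of the factor.

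The secreted antagonists that bind Wnt ligands were 4 Sfrp genes with Frzb and Wif1. Sfrp4, a secreted Frizzled-related protein (chromosome 13, 19623104 to 19632994), measured 33.6, 24.4, 61.5 and 45.6 CPM in NeMO replicates 1 to 4, against 17.5, 18.8, 20.3 and 8.20 in Sham replicates 1 to 4. Every NeMO library was thus above every Sham library, and Sham replicate 4 was the lowest. On the log2 scale its fold change was 1.58 (SE 0.29, edgeR adjusted p = 0.0850, DESeq2 adjusted p = 2.88e-07). It was 1.33 in batch 1 and 2.10 in batch 2, where it rests on 1 Sham library.

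Frzb, another Frizzled-related antagonist best known from cartilage (chromosome 2, 80411970 to 80447625), measured 8.40, 8.48, 50.5 and 18.7 CPM in NeMO, against 7.04, 5.40, 6.50 and 3.65 in Sham. The groups did not overlap, but NeMO replicates 1 and 2 lay close to the Sham range and NeMO replicate 3 far above it. Between the groups its log2 fold change was 2.11 (SE 0.57, edgeR adjusted p = 0.143, DESeq2 adjusted p = 0.0172). Without NeMO replicate 3 it was 1.10, and without NeMO replicate 1 it was 2.55 (edgeR adjusted p = 0.0198). A change in the number of cells of a type and a change in RNA per cell cannot be told apart in such whole-tissue samples.

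Sfrp1, the Sfrp gene of highest mean level per length (chromosome 8, 23411502 to 23449632), measured 90.1, 59.4, 328 and 210 CPM in NeMO and 95.0, 70.3, 79.5 and 67.0 in Sham. Here NeMO replicates 1 and 2 lay within or below the Sham values, and replicates 3 and 4 stood at more than any Sham library. The log2 fold change of 1.23 (SE 0.53, edgeR adjusted p = 0.280) was 0.55 without NeMO replicate 3. Sfrp2, which is expressed by fibroblasts in many tissues, measured 23.5, 34.1, 70.4 and 29.6 CPM in NeMO and 28.5, 27.4, 26.9 and 19.2 in Sham. NeMO replicate 1 was inside the Sham range and NeMO replicate 3 the highest of all. Its log2 fold change was 0.76 (SE 0.31, edgeR adjusted p = 0.253), 0.22 without NeMO replicate 3 and 1.08 without NeMO replicate 1 (edgeR adjusted p = 0.0101).

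Sfrp5, which is known from adipose tissue, went the other way. It measured 3.15, 3.18, 1.19 and 5.09 CPM in NeMO and 4.95, 4.40, 7.69 and 7.98 in Sham. NeMO replicate 4 reached into the Sham range, and NeMO replicate 3, the highest library for the other Sfrp genes, was here the lowest. On the log2 scale its fold change was -1.22 (SE 0.35, edgeR adjusted p = 0.134, DESeq2 adjusted p = 0.0125). All 6 adipocyte markers were lower in NeMO as well, 4 of them at an unadjusted p under 0.05 and 0 past edgeR's threshold. They summed to 768, 641, 336 and 1100 CPM in NeMO and 1404, 1187, 862 and 2501 in Sham, none was at 0, and their part in the Sfrp5 difference was not tested. Wif1, the Wnt inhibitory factor, measured 2.91 to 4.47 CPM in NeMO and 4.34 to 5.10 in Sham. Its log2 fold change was -0.30 (SE 0.18, edgeR adjusted p = 0.406), -0.12 in batch 1 and -0.63 in batch 2, which holds a lone Sham library.

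Dkk3 had the highest mean level per kilobase of the antagonists over the 8 libraries, though its range overlapped that of Sfrp1, which was level with it in NeMO replicate 3 (75.0 CPM per kb for Dkk3 and 75.1 for Sfrp1). Each antagonist's range overlapped that of the next in the order Dkk3, Sfrp1, Sfrp2, Dkk2, Sfrp4, Frzb, Sfrp5 and Wif1. Dkk3 is a divergent family member whose role in Wnt signalling is less clear than that of its relatives. Dkk3 measured 212, 222, 252 and 184 CPM in NeMO and 179, 157, 166 and 174 in Sham, so that the lowest NeMO library was just above the highest Sham library. Between the groups its log2 fold change was 0.38 (SE 0.10, edgeR adjusted p = 0.118, DESeq2 adjusted p = 0.0219). Dkk2, an Lrp-binding modulator, measured 26.7, 36.5, 106 and 65.1 CPM in NeMO and 59.8, 30.1, 29.2 and 19.4 in Sham. NeMO replicates 3 and 4 were the highest, but Sham replicate 1 exceeded NeMO replicates 1 and 2. The log2 fold change of 0.96 (SE 0.53, edgeR adjusted p = 0.383) was 0.35 without NeMO replicate 3. Dkk1 had 5 reads in all NeMO libraries and 1 in all Sham libraries, and Dkk4 had none in any.

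**Figure D2:**
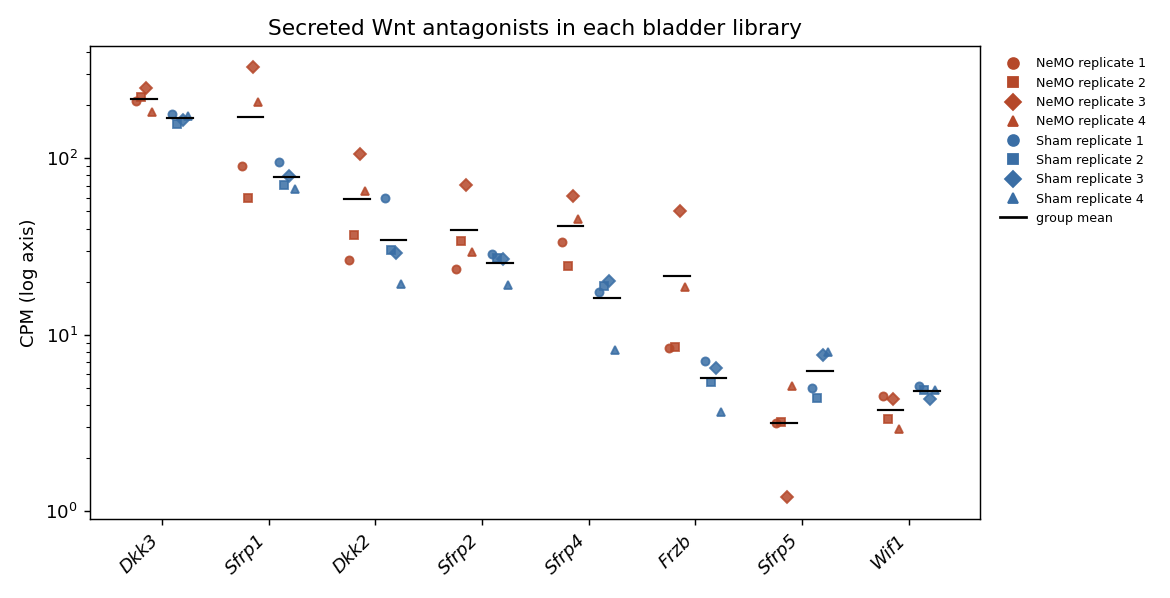
CPM (log axis) of the 8 tested secreted antagonists in each library, NeMO left and Sham right for each gene, with the replicate given by the symbol and the group mean by a bar. NeMO replicate 3 (diamonds) is the highest library for Dkk3, Sfrp1, Dkk2, Sfrp2, Sfrp4 and Frzb and the lowest for Sfrp5.

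As a role, the antagonists had 6 of 8 tested genes higher in NeMO, with a median log2 fold change of 0.86, against 48.3% higher and a median of -0.01 over all genes tested. None rose or fell by edgeR's test, and 5 of the 8 had an unadjusted p below 0.05 (4 higher, 1 lower), against 18.5% of all genes. With length and GC trends removed, 5 of the 8 were below that limit, against 13.2% of all genes. DESeq2 called 3 higher and 1 lower, against 5.82% of all genes. Summed per kilobase of exon, the 4 Sfrp genes and Frzb came to 43.8, 39.6, 139 and 81.2 CPM per kb in NeMO, against 43.9, 37.3, 41.6 and 31.5 in Sham. The NeMO libraries thus split, with replicates 1 and 2 at the Sham level and replicates 3 and 4 above it. The fibroblast markers summed to 9406, 8162, 20022 and 12525 CPM in the same NeMO libraries and to 11466, 9213, 10502 and 8442 CPM in Sham. Of these 7 markers 5 were higher and 2 lower in NeMO, 0 passed edgeR's test and none was at 0. The markers did not all move together. NeMO replicate 3 was the highest of the 8 libraries for Col1a1, Col3a1, Lum, Dcn and Pdgfra, though by different margins. Lum measured 957 CPM there, against 307 to 743 in the other libraries, and Dcn 2863, against 1980 to 2813. Col3a1 measured 3709, 3377, 10536 and 5785 CPM in NeMO, and Pdgfra, a receptor that marks fibroblasts, measured 157, 106, 167 and 130. In Sham, Col3a1 measured 3060 to 4500 CPM and Pdgfra 129 to 162. NeMO replicate 3 was the lowest of the 8 libraries for Dpt, at 143 CPM, against 158 to 199 in the other NeMO libraries and 195 to 260 in Sham. It was also the lowest for Pi16, at 264 CPM, against 334 to 539 in the other NeMO libraries and 387 to 537 in Sham. The part of fibroblast content in the antagonist levels was not tested.

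No Wnt ligand gene separated the groups, and for 8.19% of all genes the groups had no overlap. With 12 ligands tested, a count of 0 is near that share. Of 19 ligand genes 12 were tested, of which 3 were higher and 9 lower in NeMO (median log2 fold change -0.08). Neither edgeR nor DESeq2 called any, and 3 of the 12 (against 18.5% of all genes) were below an unadjusted p of 0.05 with edgeR, each lower in NeMO (9.14% of all genes). Once length and GC trends were removed, 1 of the 12 was below that limit, against 13.2% of all genes. Per kilobase of exon the 19 ligands summed to 90.8 ± 1.80 CPM per kb in NeMO and 95.6 ± 5.49 in Sham (SD, n = 4 each). Wnt5a, the leading non-canonical ligand (chromosome 14, 28504750 to 28527448), made up 34.2% to 36.0% of that sum in NeMO and 28.9% to 34.0% in Sham. It measured 242, 250, 249 and 253 CPM in NeMO and 254, 268, 218 and 211 in Sham. The Sham values lay on both sides of the NeMO values. The log2 fold change was 0.08 (SE 0.09, edgeR adjusted p = 0.662).

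Per kilobase the order was Wnt5a (31.8 ± 0.635 CPM per kb in NeMO, 30.4 ± 3.52 in Sham), then Wnt2 (15.8 ± 1.12 and 17.8 ± 1.85) and Wnt4 (15.6 ± 1.66 and 15.5 ± 2.49). Wnt2 and Wnt4 overlapped over the 8 libraries, while Wnt5a stood clear of both. Wnt2b (7.27 ± 2.03 in NeMO, 10.4 ± 1.64 in Sham) and Wnt7b (7.64 ± 1.22 and 8.41 ± 0.812) came next and overlapped each other. Wnt9a and Wnt5b followed and overlapped too, and Wnt11 stood alone below them. Wnt10b, Wnt10a, Wnt6 and Wnt3a were each under 1 CPM per kb in both groups and overlapped from 1 to the next.

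**Figure D3:**
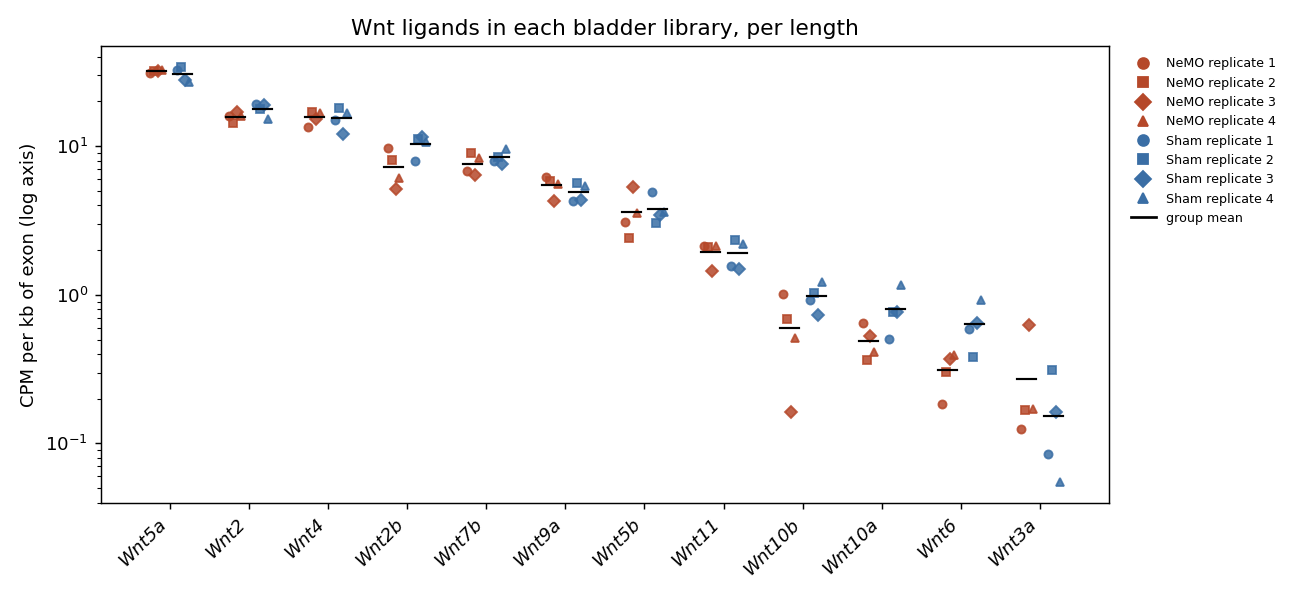
CPM per kilobase of exon (log axis) of the 12 tested Wnt ligands in each library, NeMO left and Sham right for each gene, with the replicate given by the symbol and the group mean by a bar. Wnt5a lies above all others in every library, and the groups overlap for all 12 genes.

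Wnt4, a ligand with roles in epithelial and stromal development, measured 56.0, 71.4, 64.1 and 69.9 CPM in NeMO and 63.2, 75.1, 50.9 and 69.9 in Sham (log2 fold change -0.04 with SE 0.12, edgeR adjusted p = 0.883). Wnt7b, an epithelial ligand, measured 33.5, 44.3, 31.4 and 40.4 CPM in NeMO and 39.2, 41.7, 37.4 and 46.5 in Sham. Its groups overlapped, and the log2 fold change of -0.23 (SE 0.08, edgeR adjusted p = 0.177) was -0.28 in batch 1 and -0.13 in batch 2. The urothelial markers had 8 of 9 genes lower in NeMO, 6 at an unadjusted p under 0.05 and 0 past edgeR's threshold, and none was at 0. Their sums were 5336, 7828, 5579 and 6652 CPM in NeMO and 6506, 8076, 6669 and 8500 in Sham, and their part in the Wnt7b difference was not tested. Wnt7b also shares exon positions on the opposite strand with AU022754, which had 2259 reads over the 8 libraries, and whether the counting used strand is not known.

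Wnt2b, a canonical ligand of mesenchyme, measured 40.7, 34.1, 21.6 and 25.8 CPM in NeMO and 33.5, 47.2, 48.7 and 44.6 in Sham. NeMO replicates 3 and 4 were the lowest of the 8 libraries, the reverse of their place for Sfrp1. On the log2 scale its fold change was -0.51 (SE 0.22, edgeR adjusted p = 0.267), -0.79 without NeMO replicate 1 and -0.31 without NeMO replicate 3. Wnt6, on chromosome 1, stood near 1 CPM, with 0.401, 0.662, 0.816 and 0.858 in NeMO and 1.30, 0.831, 1.41 and 2.01 in Sham. Only Sham replicate 2 reached into the NeMO range. Between the groups its log2 fold change was -1.12 (SE 0.35, edgeR adjusted p = 0.159), and its counts were 14 to 31 reads a library in NeMO and 24 to 53 in Sham.

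The neighbouring gene Wnt10a measured 0.894 to 1.61 CPM in NeMO and 1.24 to 2.89 in Sham (log2 fold change -0.71 with SE 0.33, edgeR adjusted p = 0.295), and -0.20 in batch 1. Wnt10b, a ligand known to hold back fat cell formation, measured 3.44, 2.35, 0.553 and 1.74 CPM in NeMO and 3.15, 3.50, 2.48 and 4.14 in Sham. Its log2 fold change was -0.76 (SE 0.47, edgeR adjusted p = 0.423), and it was -1.68 without NeMO replicate 1 (edgeR adjusted p = 0.0492) and -0.37 without NeMO replicate 3 (edgeR adjusted p = 0.625). Wnt3a, the classical activator of beta-catenin, had the largest positive value of the ligands, 1.15 (SE 0.61, edgeR adjusted p = 0.348). That value rested on NeMO replicate 3 at 1.72 CPM, against 0.344 to 0.471 in the other NeMO libraries and 0.152 to 0.866 in Sham, and was 0.31 without it.

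The other 7 ligand genes were at or near the detection limit. Wnt3, Wnt7a and Wnt8a had no read in any library, which allows up to 3 reads, or 0.0830 to 0.114 CPM, in each. Wnt1 had 1 read in NeMO and 11 in Sham, every one of these 11 in replicate 3, and Wnt8b had 3 in NeMO and 6 in Sham. Wnt9b had 4 and 3 reads in NeMO and Sham. Wnt16 had 27 reads in NeMO, 23 of them in replicate 3, and 14 in Sham. No difference between the groups was detectable for these genes at this depth.

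Of the 4 R-spondin genes, Rspo1 and Rspo3 were tested and neither passed. Rspo3 measured 11.4, 11.4, 14.1 and 9.16 CPM in NeMO and 10.7, 6.89, 11.9 and 9.80 in Sham (log2 fold change 0.27 with SE 0.19, edgeR adjusted p = 0.488). Rspo1 was spread widely in both groups, with 6.56, 8.61, 9.26 and 14.4 CPM in NeMO and 4.71, 20.3, 8.89 and 8.89 in Sham. Sham replicate 2 was the highest library, and the log2 fold change of -0.20 (SE 0.49, edgeR adjusted p = 0.861) turned to 0.28 without it. The same library was the highest for all 5 mesothelial markers. Msln stood at 111 CPM there, against 13.9 to 36.2 in the other 7 libraries, and Lrrn4 at 24.8, against 5.89 to 12.9. Wt1 stood at 15.3 CPM, against 4.89 to 13.4, Bnc1 at 9.80, against 2.30 to 8.83, and Upk3b at 443, against 209 to 434. Over all 5 mesothelial markers 3 were higher and 2 lower in NeMO, with sums of 262 to 395 CPM in NeMO and 334 to 604 in Sham, and none was at 0. Their part in the Rspo1 level was not tested. Rspo2 had 23 reads in NeMO and 17 in Sham, and Rspo4 had 0 in NeMO and 2 in Sham.

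Among the receptors the co-receptor Lrp6 and Fzd3 separated the groups, in opposite directions. Lrp6, which pairs with Frizzled proteins to pass the signal to beta-catenin (chromosome 6, 134446476 to 134566965, minus strand), measured 170, 139, 184 and 149 CPM in NeMO and 121, 124, 130 and 122 in Sham. All NeMO libraries lay above the narrow Sham range. The log2 fold change of 0.41 (SE 0.08) had the smallest p of the 40 genes (edgeR adjusted p = 0.0779, DESeq2 adjusted p = 0.000685). Across all genes, a library's deviation from the mean correlated with transcript length (Spearman) by 0.00177 to 0.262 in NeMO and -0.268 to -0.00195 in Sham, and the exons of Lrp6 span 13672 bases. Once length and GC trends were removed, its log2 fold change was 0.25 (edgeR unadjusted p = 0.0122), with 13.2% of all genes under 0.05 in that fit. Its relative Lrp5 measured 62.5 to 79.1 CPM in NeMO and 60.9 to 89.4 in Sham, with groups that overlapped widely.

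Fzd3, a Frizzled receptor known from axon guidance and planar polarity (chromosome 14, 65192449 to 65262463, minus strand), measured 5.88, 5.93, 5.18 and 6.20 CPM in NeMO and 6.57, 8.10, 9.07 and 8.66 in Sham. The NeMO libraries all lay below the Sham libraries and close to each other. On the log2 scale its fold change was -0.52 (SE 0.15, edgeR adjusted p = 0.144, DESeq2 adjusted p = 0.0446), and -0.71 with the length correction. It was -0.52 in batch 1 and -0.51 in batch 2. The nerve and glia markers were lower in NeMO too, 5 of 5 tested and 2 at an unadjusted p under 0.05, with 0 past edgeR's threshold. Their 6 genes summed to 35.7 to 44.0 CPM in NeMO and 41.7 to 77.4 in Sham. No gene of the list was at 0 in all libraries, although Th, a noradrenergic marker, had no read in NeMO. Their part in the Fzd3 difference was not tested.

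Fzd1, the receptor of highest mean level per length, measured 153, 148, 234 and 160 CPM in NeMO and 167, 125, 132 and 123 in Sham. NeMO replicate 3 stood far above the rest, and Sham replicate 1 exceeded the other NeMO libraries. Its log2 fold change of 0.40 (SE 0.15, edgeR adjusted p = 0.205) was 0.21 without NeMO replicate 3. Fzd6, a receptor of epithelial polarity, measured 69.9, 87.4, 86.0 and 79.1 CPM in NeMO and 74.0, 69.1, 62.2 and 64.6 in Sham (log2 fold change 0.25 with SE 0.10, edgeR adjusted p = 0.213). Fzd7 measured 162, 115, 98.8 and 112 CPM in NeMO and 108, 122, 119 and 125 in Sham. NeMO replicate 1 alone carried its higher NeMO mean, and the log2 fold change of 0.05 (SE 0.15, edgeR adjusted p = 0.880) was -0.19 without that library.

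Of the 12 receptor genes 11 were tested, 7 higher and 4 lower in NeMO (median log2 fold change 0.11). None passed edgeR's test, and 4 of the 11 (36.4%, against 18.5% of all genes) had an unadjusted p below 0.05, 3 higher and 1 lower. With length and GC trends removed, 6 of the 11 were below that limit, against 13.2% of all genes. Of these, Fzd1, Fzd2, Fzd6 and Lrp6 were higher and Fzd3 and Fzd4 lower in NeMO. The groups did not overlap for Lrp6 and Fzd3 alone (18.2%, against 8.19% of all genes). The 10 Fzd genes summed to 122 ± 8.04 CPM per kb in NeMO and 107 ± 3.90 in Sham (SD, n = 4 each). Per kilobase Fzd1, Fzd7, Fzd2, Fzd6, Lrp6 and Lrp5 ran from high to low, each overlapping the next, with a gap below Lrp5. Fzd5, Fzd4, Fzd10 and Fzd8 formed a lower run of overlapping levels, and Fzd3 lay clear below them. Fzd9 had 16 reads in NeMO and 11 in Sham and was not tested.

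None of the 4 feedback targets, which are induced where beta-catenin signalling is active, separated the groups. Over all genes, the groups had no overlap for 8.19%, and with 4 genes a count of 0 is near that share. Axin2, the usual readout of that activity, measured 19.2, 12.2, 20.7 and 18.9 CPM in NeMO and 21.5, 15.9, 16.0 and 22.9 in Sham. The groups overlapped, with NeMO replicate 2 the lowest library. Between the groups its log2 fold change was -0.10 (SE 0.20, edgeR adjusted p = 0.833), 0.16 in batch 1 and -0.55 in batch 2. Nkd1, an inhibitor induced by the pathway, measured 98.0, 75.3, 72.8 and 79.6 CPM in NeMO and 98.0, 83.1, 94.6 and 124 in Sham. Sham replicate 4 was the highest library, and NeMO replicate 1 lay among the Sham values. The log2 fold change was -0.31 (SE 0.14, edgeR adjusted p = 0.264) and -0.49 without NeMO replicate 1 (edgeR adjusted p = 0.0393). It was -0.11 in batch 1 and -0.67 in batch 2, where Sham replicate 4 is the lone Sham library.

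Nkd2, its relative, measured 125, 88.9, 106 and 113 CPM in NeMO and 103, 89.3, 98.3 and 92.0 in Sham (log2 fold change 0.21 with SE 0.10, edgeR adjusted p = 0.295). Nkd1 and Nkd2 thus had log2 fold changes of opposite sign, and neither passed the test. Notum, a secreted enzyme that strips the lipid from Wnt ligands, measured 5.85 to 10.001 CPM in NeMO and 6.26 to 10.7 in Sham (log2 fold change -0.24 with SE 0.19, edgeR adjusted p = 0.547). Over the 4 targets 1 was higher and 3 lower (median log2 fold change -0.17). Of the 4, 1 (Nkd1, lower) had an edgeR unadjusted p below 0.05, against 18.5% of all genes. With length and GC trends removed, 2 did (Nkd1 lower, Nkd2 higher), against 13.2% of all genes.

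**Figure D4:**
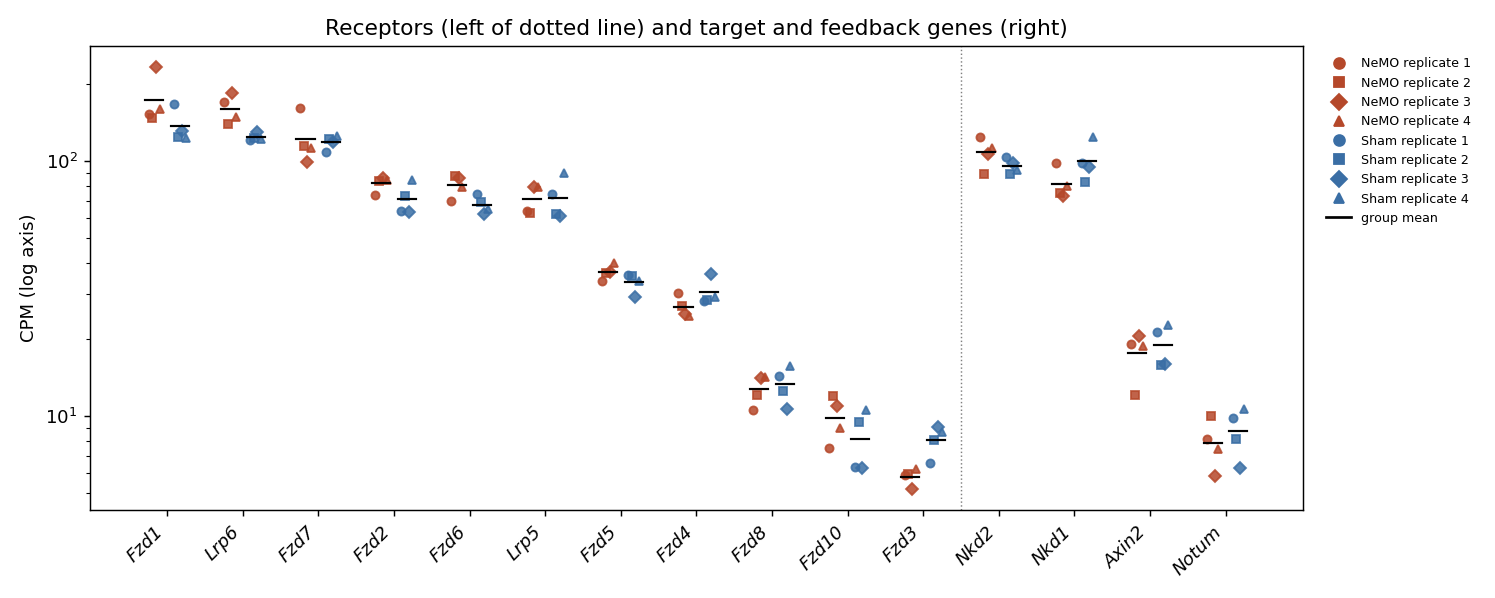
CPM (log axis) of the 11 tested receptor genes, left of the dotted line, and of the 4 target and feedback genes, right of it, in each library, NeMO left and Sham right for each gene, with the group mean as a bar. Lrp6 and Fzd3 are the genes in the plot whose 4 NeMO and 4 Sham values do not overlap.

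The groups overlapped for the 3 effectors too, again a count near the share over all genes. Ctnnb1, which encodes beta-catenin for both signalling and cell junctions, was the most abundant of the 52 genes per kilobase of exon. It measured 1142, 1323, 1198 and 1281 CPM in NeMO and 1105, 1158, 1103 and 1194 in Sham (log2 fold change 0.08 with SE 0.09, edgeR adjusted p = 0.666). Lef1, a DNA-binding partner of beta-catenin, measured 2.15, 3.11, 2.74 and 3.02 CPM in NeMO and 2.74, 1.80, 1.89 and 2.01 in Sham. Sham replicate 1 was the Sham library that reached the NeMO levels. On the log2 scale its fold change was 0.33 (SE 0.25, edgeR adjusted p = 0.504), and that of Tcf7, another such partner, 0.18 (SE 0.20, edgeR adjusted p = 0.661).

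Beyond these genes, 57 of 60 other genes of the pathway were tested, and none rose or fell by edgeR's test. Of the 57, 39 were higher and 18 lower in NeMO (median log2 fold change 0.08). An unadjusted p below 0.05 was reached by 12 higher and 2 lower genes (24.6%, against 18.5% of all genes). With length and GC trends removed, 9 of the 57 were below that limit with edgeR, against 13.2% of all genes. DESeq2 called 2 higher and 1 lower (5.26%, against 5.82% of all genes). Sostdc1, a secreted antagonist that binds Lrp6, measured 3.64, 3.94, 1.98 and 2.74 CPM in NeMO and 9.57, 4.57, 7.99 and 6.04 in Sham. All NeMO values lay below all Sham values, the opposite of Sfrp4. Between the groups its log2 fold change was -1.20 (SE 0.31, edgeR adjusted p = 0.117, DESeq2 adjusted p = 0.00635).

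Wisp1, a secreted matricellular protein known as a Wnt-induced gene, measured 11.8, 7.22, 31.9 and 20.1 CPM in NeMO and 4.39, 6.99, 3.08 and 5.93 in Sham. The groups did not overlap, and NeMO replicates 3 and 4 were again the highest. The log2 fold change was 1.84 (SE 0.49, edgeR adjusted p = 0.142, DESeq2 adjusted p = 0.0273) and 1.26 without NeMO replicate 3. Tnks, which encodes an enzyme that marks axin for removal, measured 25.2 to 33.0 CPM in NeMO and 17.7 to 22.8 in Sham (log2 fold change 0.47 with SE 0.13, edgeR adjusted p = 0.127). The exons of Tnks span 14888 bases, and its log2 fold change was 0.32 with length and GC trends removed. Ror1, a Wnt5a receptor, measured 33.6 to 43.5 CPM in NeMO and 27.4 to 32.4 in Sham, also without overlap (log2 fold change 0.32 with SE 0.10, edgeR adjusted p = 0.159). The same correction gave Ror1 a log2 fold change of 0.22. Gsk3b, a kinase of the complex that degrades beta-catenin, measured 102 to 127 CPM in NeMO and 94.4 to 110 in Sham (log2 fold change 0.26 with SE 0.08, edgeR adjusted p = 0.161). Its exons span 9831 bases, and the log2 fold change was 0.11 once length and GC trends were removed.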

How the data were processed

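Bladder polyA RNA was sequenced as single-end reads from a directional library kit, per the labels' protocols. Each deposited file is a list of gene symbols with raw counts of reads. Trimmomatic, STAR, featureCounts, DESeq2 and mm10 are named, with no versions, in the submitters' processing notes. How strand and multi-mapping reads were handled, and the annotation, are not given in the sources. Near-identical copies and opposite-strand overlaps are therefore uncertain.

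The titles give group and replicate number, and the submitted file names give batch. The analysis used edgeR 4.0.16 in R 4.3.3. Genes were kept by filterByExpr (minimum count 10, minimum total 15), scaled by TMM and tested with the quasi-likelihood F-test (robust, two-sided, batch and group as terms), with Benjamini-Hochberg adjustment over 16370 genes and a threshold of 0.05. DESeq2 1.42.0 was an alternative. CPM use the TMM library sizes. Levels per kilobase use the union of exons in GENCODE release M21 (GRCm38, the assembly of mm10). All 52 genes had a length. Lengths and GC content covered 98.9% of the genes tested. The correction subtracted a spline (4 degrees of freedom each) in every library. The fit was checked on simulated data with known changes, in 5 runs. It found 82 of 328 changed genes at a log2 fold change of 0.5 in size, 225 of 331 at 1 and 287 of 323 at 2. It also made 53 false calls over the 5 runs. The simulated counts held no length trend, unlike the real libraries, and no library made to stand apart. The shares found may therefore not hold for the real libraries. Every pair of libraries in a group differed by more than sampling noise. Intervals of counting error are not given for replicated values, and limits from a count of 0 cover counting error only.

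The genes and lists were chosen with earlier results of these data known. Named are, in each role, the 3 most abundant genes and the 3 of smallest p (all genes in roles of up to 5), and the 5 other pathway genes of smallest p. Frzb, Sfrp2, Fzd6, Wif1, Wnt3a, Wnt10a, Wnt10b, Lrp5, Wnt2 and the genes shown in marker lists were added after their values were seen. The alternatives were DESeq2, its size factors, no filter, no batch term, a replicate block, each batch alone, leaving out each library, and the length and GC correction.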

Additional observations from a re-analysis of the deposited data

Results flagged for a closer look

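In a group of 4, a library was marked where its gap to the nearest library took up nearly all of the group's whole range (Dixon's 95% limit). Of 70 groups of values checked (35 named genes in NeMO and in Sham), 2 were marked, and chance alone marks about 1 group in 20. Fzd1 in NeMO replicate 3 measured 234 CPM, against 148 to 160 in the other NeMO libraries. Wnt3a in NeMO replicate 3 measured 1.72 CPM, against 0.344 to 0.471 in the other NeMO libraries.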

How the results depend on the processing

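With all libraries and edgeR, 0 of the Wnt genes and 0 of the other pathway genes passed (13 and 14 at an unadjusted p under 0.05), and 12 genes in all. DESeq2 gave 6, 3 and 953, and no filter on low counts gave 1 Wnt gene (Lrp6) and 172 in all. Over all genes the count was 7 without the batch term, 0 in batch 1 (edgeR, 1719 at an unadjusted p under 0.05) and 5 in batch 2. Leaving out 1 library gave 0 to 6 Wnt genes and 0 to 652 in all. The 6 came without NeMO replicate 1 and were Lrp6, Sfrp4, Frzb, Sfrp2, Nkd1 and Wnt10b. The main fit did not pair libraries by replicate number, and whether the numbers mark pairs is not settled. Deviations from the group mean correlated between same-numbered libraries by -0.01, 0.08, 0.04 and 0.32. By these deviations, 2 of 4 NeMO and 2 of 4 Sham libraries correlated best with their own number. Batch was left in the deviations, so they mix batch with any pairing. A replicate block beside batch gave 2 genes in all and in place of batch 0 (2648 at an unadjusted p under 0.05), with 0 Wnt genes in both. With these blocks the log2 fold change of Rspo1 was 0.41 and 0.00268, and that of Wnt4 0.0513 and 0.0199. Of 595 values of 35 named genes under 17 alternatives, 559 kept direction and side of the threshold, 16 (of 12 genes) crossed it and 20 (of 6 genes) changed sign, each from a value that had not passed. Batch 2 alone gave Rspo1 0.38, Wnt4 0.0208, Tcf7 -0.22 and Fzd7 -0.13. Batch 1 alone gave Wnt5a -0.00686 and Axin2 0.16, no batch term gave Wnt4 0.0121, and the length correction gave Wnt5a -0.0419. With 1 library left out, Rspo1 ran from -0.51 to 0.28, Wnt4 from -0.12 to 0.0494, Wnt5a from -0.00701 to 0.13, Fzd7 from -0.19 to 0.19 and Axin2 from -0.20 to 0.16. The cause was not tested. Batch 2 has a lone Sham library, whose spread is taken to equal that of NeMO there, and leaving it out repeats batch 1. Genes near 1 CPM, such as Wnt6 and Wnt3a, rest on few reads.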
